A study of Mus musculus with 24 samples.

Results

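The nuclear-encoded subunits of the 5 oxidative phosphorylation complexes were followed in RNA of microglia sorted from mouse retinas. Members were all genes whose symbols fit the naming of these subunits (the Ndufa, Ndufb, Ndufc, Ndufs and Ndufv series with Ndufab1, Sdha to Sdhd, the Uqcr series with Cyc1, Cox4 to Cox8, and Atp5), leaving out names that end in -ps. This gave 90 of the 47729 genes in the tables: 41 of complex I, 4 of complex II, 9 of complex III, 19 of complex IV and 17 of ATP synthase. Of these, 86 were annotated as protein coding and 4 as processed pseudogenes (Cox6c2, Ndufa11b, Ndufb4c and Ndufs6b). By name the members include Ndufa4, first assigned to complex I and now known as a complex IV subunit, and Atp5s, a coupling factor and not a core subunit.

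The study has 24 retinas of 15 mice, 5 in each of 3 groups. DBA/2J mice at 12 months (Gpnmb-/- Tyrp1b-/-, 10 retinas) carry both iris mutations of a strain that develops pigment-dispersing glaucoma with age, and their eyes were labelled mild, moderate or severe. DBA/2J Gpnmb+ mice at 12 months (Gpnmb+/+ Tyrp1b-/-, 9 retinas) keep the Tyrp1b mutation, and DBA/2J mice at 6 months (Gpnmb-/- Tyrp1b-/-, 5 retinas, 1 per mouse) are the younger group of the same genotype. Microglia, the resident macrophages of the retina, were sorted as CD11b+ Ly6c- Fcrls+ cells, 100 to 600 per retina, per the labels.

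Complex I (NADH dehydrogenase) and complex II (succinate dehydrogenase) pass electrons to ubiquinone, complex III passes them to cytochrome c, and complex IV (cytochrome c oxidase) passes them to oxygen. Complexes I, III and IV pump protons, and ATP synthase uses the gradient to make ATP. All complexes but complex II also hold subunits encoded by the mitochondrial genome, so both genomes contribute to each of them. In microglia the balance between oxidative phosphorylation and glycolysis is known to shift when the cells become activated.

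Many genes of these subunits are known to share promoter sites for the factors GABP (an ETS factor), NRF1 and YY1. RefSeq promoter windows of 300 bases, reaching 250 bases before the start (GRCm38.p6), matched 67 members by symbol. On either strand, 10 members held the NRF1 core GCATGCGC, which was 14.9% of those with a window, against 3.05% of the 27025 genes with a window and 6.4% of the 8908 such genes that were tested here. The YY1 core AAGATGGC was in 9 members, 13.4% against 3.19% and 5.8%, and 7 of these 9 were complex I genes, which held 33 of the 67 windows. The ETS core CCGGAAGT was in 5 members, 7.5% against 4.31% and 10.2%. Any of these 3 was in 23 members, 34.3% against 9.91% and 20.7%. No core contains another. The 100 bases that end at the RefSeq start are shown for 1 member of each of 4 complexes, to show where a core lies, with the core in capitals. Annotated GENCODE starts differ from RefSeq starts, so part of a stretch can be transcribed. GENCODE starts Sdhb at base 140961203 and Atp5h, on the minus strand, at base 115419962. The cores printed for Sdhb and Atp5h therefore lie inside the annotated genes. A match describes these letters and does not show binding.
Sdhb (NRF1 core, chr4:140961171-140961270, plus strand): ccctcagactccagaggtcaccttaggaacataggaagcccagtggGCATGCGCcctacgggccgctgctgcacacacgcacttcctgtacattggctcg
Ndufa6 (NRF1 core, chr15:82354292-82354391, minus strand): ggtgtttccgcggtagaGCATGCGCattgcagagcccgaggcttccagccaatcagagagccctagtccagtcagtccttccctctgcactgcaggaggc
Atp5h (ETS core on the other strand, chr11:115419920-115420019, minus strand): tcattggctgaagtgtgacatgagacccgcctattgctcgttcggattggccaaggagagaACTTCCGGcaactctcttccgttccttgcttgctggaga
Uqcrh (ETS core on the other strand, chr4:116075071-116075170, minus strand): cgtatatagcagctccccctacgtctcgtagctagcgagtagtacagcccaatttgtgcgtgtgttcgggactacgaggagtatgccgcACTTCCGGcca

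Totals ran from 977873 to 20081047 counts per retina (median 11353005). Between 13.7% and 45.7% of the counts of a retina fell on 1 ribosomal RNA gene, CT010467.1. The number of genes with a count ran from 3466 to 16706, and 5 retinas, all from Gpnmb+ animals 1, 2 and 3, had fewer than 10000. In Gpnmb+ animal 2 the right retina had counts for 30 of the 90 members and the left for 48, whereas the other 22 retinas had 73 to 84. All 15 microglia markers passed the filter on low counts. Their summed level was 32366 to 45890 CPM (counts scaled to a total of 1000000) in 12-month DBA/2J animals, 24158 to 39684 in Gpnmb+ animals and 37053 to 40494 at 6 months. The 19 rod markers summed to 720.3 to 3434 CPM, 651 to 12638 CPM and 374 to 2810 CPM in the same order, with the highest value in Gpnmb+ animal 2. Of the other markers, 4 of 5 red cell, 4 of 15 retinal neuron, 3 of 9 pigment cell, 2 of 8 cone and 2 of 7 endothelial genes had no count in any retina. The rest of these genes had a count in at least 1 retina, and cone markers summed to 29.1 to 100.3, 24 to 87.9 and 17.7 to 57.6 CPM. Muller glia and astrocyte markers (8 genes, 1 without a count) summed to 293 to 423, 144 to 698 and 260.5 to 404 CPM. Of these, Glul averaged 259, 256 and 288 CPM. Monocyte and border macrophage markers (11 genes) summed to 512 to 1457 CPM in 12-month DBA/2J animals, 130.1 to 522 in Gpnmb+ animals and 47.2 to 407 at 6 months.

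Levels can be compared between genes on the TPM scale, which divides by transcript length before scaling to 1000000. Cox4i1, the ubiquitous isoform of a regulatory complex IV subunit, had the highest mean deposited TPM of the members, 651 over 24 retinas (338 to 1345). Atp5b, the catalytic beta subunit of ATP synthase, followed with 516 (303 to 1125), then Cox8a with 464, Ndufa4 with 343 and Cox6b1 with 339. The ranges of these neighbours overlap. Over all members the summed TPM was 8473 to 19927 per retina, and their share of all counts 0.325% to 0.893%. In total 20 members had a count in every retina.

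Complex IV subunits come in alternative isoforms, and the ubiquitous isoform held nearly all of the signal. Cox4i2, known from lung and from hypoxia, had counts in 1 retina, the left retina of 12-month DBA/2J animal 5. Cox6a1 had a mean of 201 TPM against 7.40 for Cox6a2, the heart and muscle isoform, and Cox6b1 had 339 against 4.75 for Cox6b2. Cox7a2 had 104 TPM and Cox7a2l, which takes part in joining complexes III and IV, had 217, against 4.15 for the muscle isoform Cox7a1. Cox8a had 464 TPM, while Cox8b was listed at 0 in 23 retinas. Cox7b2, Cox8c and the complex I paralog Ndufa4l2 had no count in any retina, which allows at most 3 counts per library, and this covers counting error only.

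**Figure D1:**
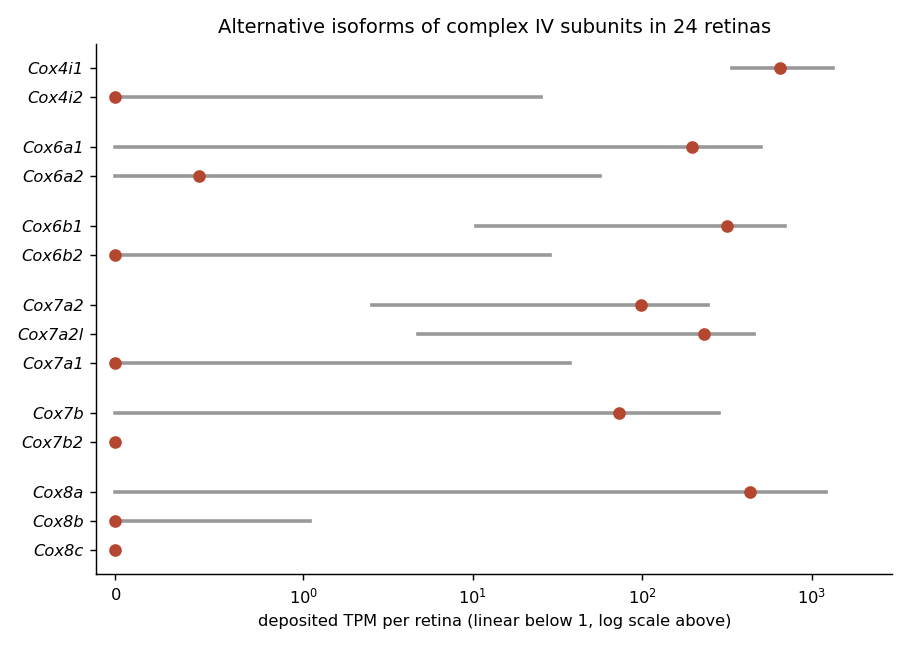
Deposited TPM of 14 complex IV subunit genes, with the isoforms of 1 subunit grouped, where the dot is the median and the line the range over 24 retinas (linear below 1, log scale above). The median of Cox4i1 is 649 and that of Cox8a 432, while the medians of Cox4i2, Cox6b2, Cox7a1, Cox7b2, Cox8b and Cox8c are 0.

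The comparison of 12-month DBA/2J with Gpnmb+ asks how microglia of glaucomatous eyes differ from those of age-matched mice without the Gpnmb mutation. Most members had higher mean levels in DBA/2J, by less than the spread allows to call. Summed over all 5 complexes, the 12-month DBA/2J animals 1 to 5 had 6180, 5841, 4431, 6519 and 4717 CPM, a mean of 5538 ± 917 (SD, n = 5). The Gpnmb+ animals 1 to 5 had 5495, 3284, 4171, 4095 and 4221 CPM, a mean of 4253 ± 793 (SD, n = 5). The ratio of means was 1.3, and 3 of 5 DBA/2J animals lay above all 5 Gpnmb+ animals, so the groups overlap. Gpnmb+ animal 1 stood above the other Gpnmb+ animals, and animal 2, with the fewest genes detected, was the lowest.

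Of the 90 members, 81 passed the filter on low counts in the fit of the 3 groups. None had an adjusted p under 0.05 in edgeR's quasi-likelihood test, and the same was true of all 12977 genes tested, a background of 0%. The log2 fold change was positive for 69 of the 81 members, where 52.4% of all genes tested had a positive one. The median over the 81 was 0.43, against 0.05 over all genes tested. At an unadjusted p under 0.05, 4 members were higher and 0 lower, against 2.75% and 2.45% of all genes. Leaving out 1 animal at a time gave 1 to 8 members higher, with 1 without DBA/2J animal 1 or without Gpnmb+ animal 4, 2 without DBA/2J animal 2, DBA/2J animal 4 or Gpnmb+ animal 2, and 8 without Gpnmb+ animal 1. Without the 5 retinas under 10000 genes, 15 of 82 members were higher at that p, 73 of 82 fold changes were positive and the median was 0.58. This setting removes Gpnmb+ animals 1 and 2 altogether, the highest and the lowest sum, and the right retina of animal 3. Only Gpnmb+ animals 3, 4 and 5 then remain, so these values do not show the effect of retina quality alone.

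Complex IV had the highest median fold change of the 5 complexes, 0.70 over 13 members that passed the filter, and 12 of them were positive. Cox4i1 (chr8:120668222-120674207, GRCm38) had 411, 297, 185, 296 and 226 CPM in DBA/2J animals 1 to 5. It had 179, 156, 160.3, 221 and 212 CPM in Gpnmb+ animals 1 to 5. DBA/2J animals 1, 2, 4 and 5 lay above all Gpnmb+ animals and animal 3 within their range, and the log2 fold change was 0.61 ± 0.24 (SE, adjusted p = 0.732 by edgeR). Cox7a2l (chr17:83501918-83517330) had 139 to 256 CPM in DBA/2J and 58.5 to 192 CPM in Gpnmb+, a log2 difference of 0.81 ± 0.34 (adjusted p = 0.807 by edgeR). Cox6b1, which stabilises the contact between the monomers of complex IV, averaged 88.2 ± 23.8 CPM against 45.0 ± 26.1 (SD, n = 5 each), a log2 difference of 0.97 ± 0.47. Other members of complex IV gave log2 values of 0.70 ± 0.53 for Cox5a, 0.53 ± 0.41 for Cox6a1, 0.32 ± 0.30 for Cox8a and -0.06 ± 0.44 for Cox7a2. Cox6a2, the muscle isoform, averaged 4.58 ± 4.45 CPM in DBA/2J and 0.491 ± 1.00 in Gpnmb+ (SD, n = 5 each), and 3 of 5 Gpnmb+ animals had no count.

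In complex I the median was 0.28 and 28 of 38 members were positive. Ndufb11, an accessory subunit of the membrane arm, had 53.2, 72.4, 49.1, 139.9 and 33.3 CPM in DBA/2J animals 1 to 5 and 55.3, 35.0, 28.0, 19.1 and 27.9 CPM in the Gpnmb+ animals. The groups overlap, since Gpnmb+ animals 1 and 2 lay above the lowest DBA/2J animal, and the log2 fold change was 1.07 ± 0.46 (SE, adjusted p = 0.846 by edgeR). Ndufc2, also of the membrane arm, gave 1.08 ± 0.51 (adjusted p = 0.951 by edgeR), and Ndufs8, an iron-sulfur subunit, gave 0.52 ± 0.34. For Ndufs1, which carries iron-sulfur clusters, and Ndufv1, which binds the flavin, the errors were larger than the differences, at 0.10 ± 0.65 and 0.29 ± 0.84. Ndufa4 averaged 81.6 ± 31.8 against 55.3 ± 16.6 CPM (SD, n = 5 each), a log2 difference of 0.56 ± 0.37.

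In complex II all 4 members were positive, between 0.28 for Sdhc and 0.47 for Sdhd. Sdha, Sdhc and Sdhd had 0 CPM in Gpnmb+ animal 2, where few members were detected, so these differences rest in part on that animal. Sdhc had 4.23 to 47.2 CPM in the other Gpnmb+ animals and 7.96 to 49.2 in DBA/2J. Sdhd had 16.9 to 139 and 42.2 to 126 CPM in the same order. Sdha, the flavoprotein that oxidises succinate, had a wide spread, with 49.5, 181, 167, 56.0 and 155 CPM in DBA/2J animals and 78.3, 0, 90.6, 200.5 and 109 CPM in Gpnmb+ animals (0.34 ± 0.80). Sdhb, the iron-sulfur subunit, had a narrower spread, with 147 ± 36.1 against 119 ± 36.3 CPM (SD, n = 5 each) and a log2 difference of 0.30 ± 0.29. In complex III all 9 were positive with a median of 0.45, and Uqcrb, Uqcr10 and Uqcrfs1 also had 0 CPM in Gpnmb+ animal 2. Uqcrh, a hinge protein of the cytochrome c1 part, had the smallest p (0.57 ± 0.45). The remaining complex III subunits named by the rule gave 0.07 ± 0.37 for Cyc1, which is cytochrome c1, 0.43 ± 0.60 for Uqcrc1, 0.45 ± 0.77 for Uqcrfs1, the Rieske iron-sulfur protein, 0.65 ± 0.69 for Uqcrq and 0.97 ± 0.96 for Uqcr10. In ATP synthase 16 of 17 were positive with a median of 0.47. Here the genes of the rotating c ring gave 1.05 ± 0.54 for Atp5g1, 0.47 ± 0.57 for Atp5g2 and 0.40 ± 0.34 for Atp5g3. Atp5j, of the peripheral stalk, gave 0.80 ± 0.46, Atp5s, with few counts, 3.07 ± 1.81, Atp5b 0.24 ± 0.19 and the gamma subunit Atp5c1 -0.01 ± 0.28. The 3 c ring genes encode the same mature protein and have related pseudogenes, as do many subunits, and Ndufb4 and its copy Ndufb4c share reads, so their counts are uncertain.

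**Figure D2:**
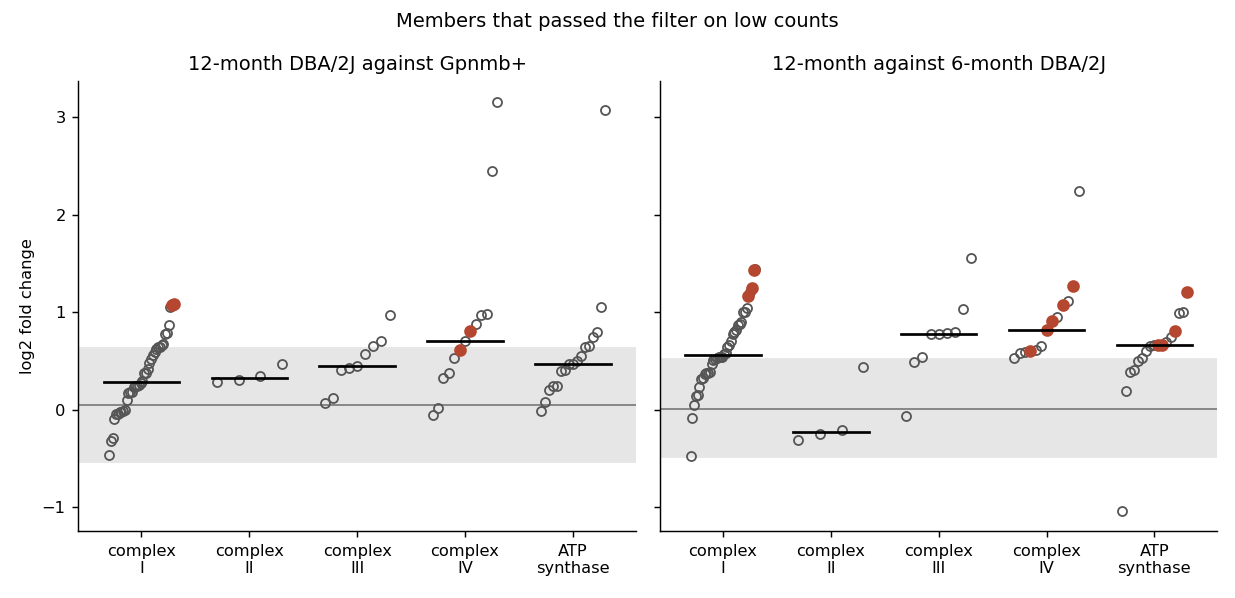
Log2 fold change of the members that passed the filter, by complex, in both comparisons of 12-month DBA/2J. Filled points have an unadjusted p under 0.05, black bars are medians of the complex, and the grey line and band are the median and the quartiles over all genes tested. Complex II has a median of -0.23 against 6-month mice, where the other complexes have 0.55 to 0.82.

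The comparison of 12-month with 6-month DBA/2J sets mice of 1 genotype before and after the age at which glaucoma is common, so age and disease cannot be told apart. The summed level of the 5 complexes was higher at 12 months in every animal, with complex II apart. The 6-month animals 1 to 5 had 3610, 3600, 3508, 4254 and 3636 CPM, a mean of 3722 ± 302 (SD, n = 5). All 5 of the 12-month animals (4431 to 6519 CPM) lay above them, and the ratio of means was 1.49. Per retina, on the scale of counts outside the ribosomal RNA gene, the 6-month retinas had 4823 to 5775 CPM. Of the 10 DBA/2J retinas at 12 months, 7 lay above that range, 2 within it and 1 below. The separation thus holds for the sums of both eyes and not for every eye. Of the 9 Gpnmb+ retinas, also of 12 months, 5 lay above that range as well. These sums do not show whether the cells hold more of these transcripts or whether the sorted pools differ in kinds of cells, since fewer cells of a type and less RNA per cell cannot be told apart in bulk RNA.

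The ratio of mean summed levels was 1.71 for complex IV, 1.61 for complex III, 1.5 for complex I and 1.46 for ATP synthase. For complexes III and IV and for ATP synthase all 5 animals at 12 months lay above all 5 at 6 months, and for complex I 4 of 5 did. Complex II had a ratio of 0.99, with 302 to 466 CPM at 12 months and 325 to 439.5 CPM at 6 months, so its groups overlapped.

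**Figure D3:**
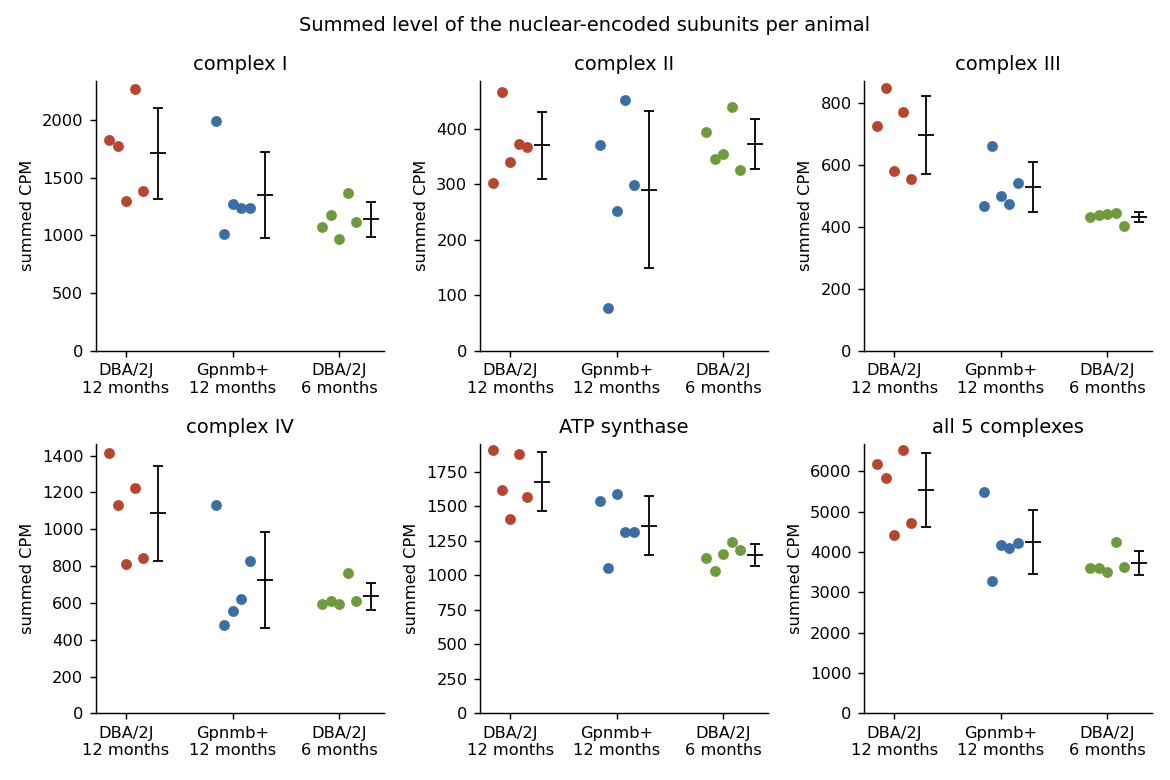
Summed CPM of the members of each complex, where points are animals in the order 1 to 5 and the bars beside them are mean ± SD (n = 5 per group). The 12-month DBA/2J animals lie above all 6-month animals for complexes III and IV, ATP synthase and the total, while the groups overlap for complex II.

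In the fit across all genes, 0 of 12977 genes had an adjusted p under 0.05 (0%), members included. Of the 81 members tested, 74 had a positive log2 fold change, where 50.6% of all genes did, and the median was 0.64 against 0.01. At an unadjusted p under 0.05, 12 were higher and 0 lower, against 2.1% and 1.55% of all genes. Leaving out 1 animal at a time gave 5 to 19 members higher, with 5 if 12-month DBA/2J animal 4 was dropped, 6 if animal 1 of that group was, 7 if 6-month animal 2 or 3 was, and 19 if Gpnmb+ animal 2 was dropped, which shares the estimate of the spread. Without the 5 retinas under 10000 genes it was 23 of 82, again all higher, with a median of 0.65. None of the 5 is a DBA/2J retina, and Gpnmb+ animals share the estimate of the spread. In 9 members the lowest 12-month animal lay above the highest 6-month animal, against 1.43% of all genes, and in 0 members the reverse held, against 1.03%. Against Gpnmb+, 0 members separated either way, with a background of 0.832% higher and 0.285% lower.

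Atp5b (chr10:128083273-128090391) had the smallest p of the members. It had 356, 364, 318, 271 and 366 CPM in the 12-month animals and 239, 205, 177, 185 and 254 CPM in the 6-month animals. The groups did not overlap, and the log2 fold change was 0.66 ± 0.19 (SE, adjusted p = 0.72 by edgeR). DESeq2 on the same sums gave the same 0.66 with an adjusted p of 0.00525, so the call depends on the tool. Ndufa4 (chr6:11900292-11907497) had 108, 51.7, 58.5, 123 and 67 CPM at 12 months against 37.6, 32.6, 28.0, 35.4 and 38.2 CPM at 6 months. It too did not overlap, at 1.25 ± 0.37 (adjusted p = 0.72 by edgeR). The other 7 members without overlap were Ndufa1, Ndufa13, Ndufb3 and Ndufb7 of complex I, Uqcrc1 and Uqcrh of complex III, and Cox8a of complex IV.

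Cox8a, a small subunit of complex IV, had 192, 137, 117, 116 and 115 CPM at 12 months and 80.6, 62.6, 87.6, 60.9 and 90.1 CPM at 6 months, a log2 difference of 0.82 ± 0.31 (SE). Cox7a2l gave 0.91 ± 0.34, Cox4i1 0.60 ± 0.24, Cox6b1 1.07 ± 0.47 and Cox7b 1.27 ± 0.57, and all 13 tested members of complex IV were positive. In these the adjusted p was 1 by edgeR, so none was called. In complex I, Ndufb11 gave 1.16 ± 0.46 and Ndufb3 1.43 ± 0.63, 2 accessory subunits of the membrane arm, while Ndufs1 gave -0.09 ± 0.65 and Ndufv1 0.58 ± 0.84. In complex III, Uqcrc2, a core protein, gave 1.03 ± 0.49, Uqcrb 1.55 ± 0.86 and Uqcrh 0.77 ± 0.45, while the Rieske protein Uqcrfs1 gave -0.07 ± 0.77. In ATP synthase the c ring gene Atp5g3 gave 0.81 ± 0.34, Atp5g1 1.21 ± 0.54 and Atp5g2 0.39 ± 0.57, and Atp5c1 gave 0.66 ± 0.28. In complex II, Sdha gave -0.25 ± 0.80, Sdhc -0.31 ± 0.98 and Sdhd -0.21 ± 0.84, and Sdhb alone was positive, at 0.44 ± 0.29. The intervals of the complex II members are wide, so a change like that of the other complexes is not shown to be absent.

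**Figure D4:**
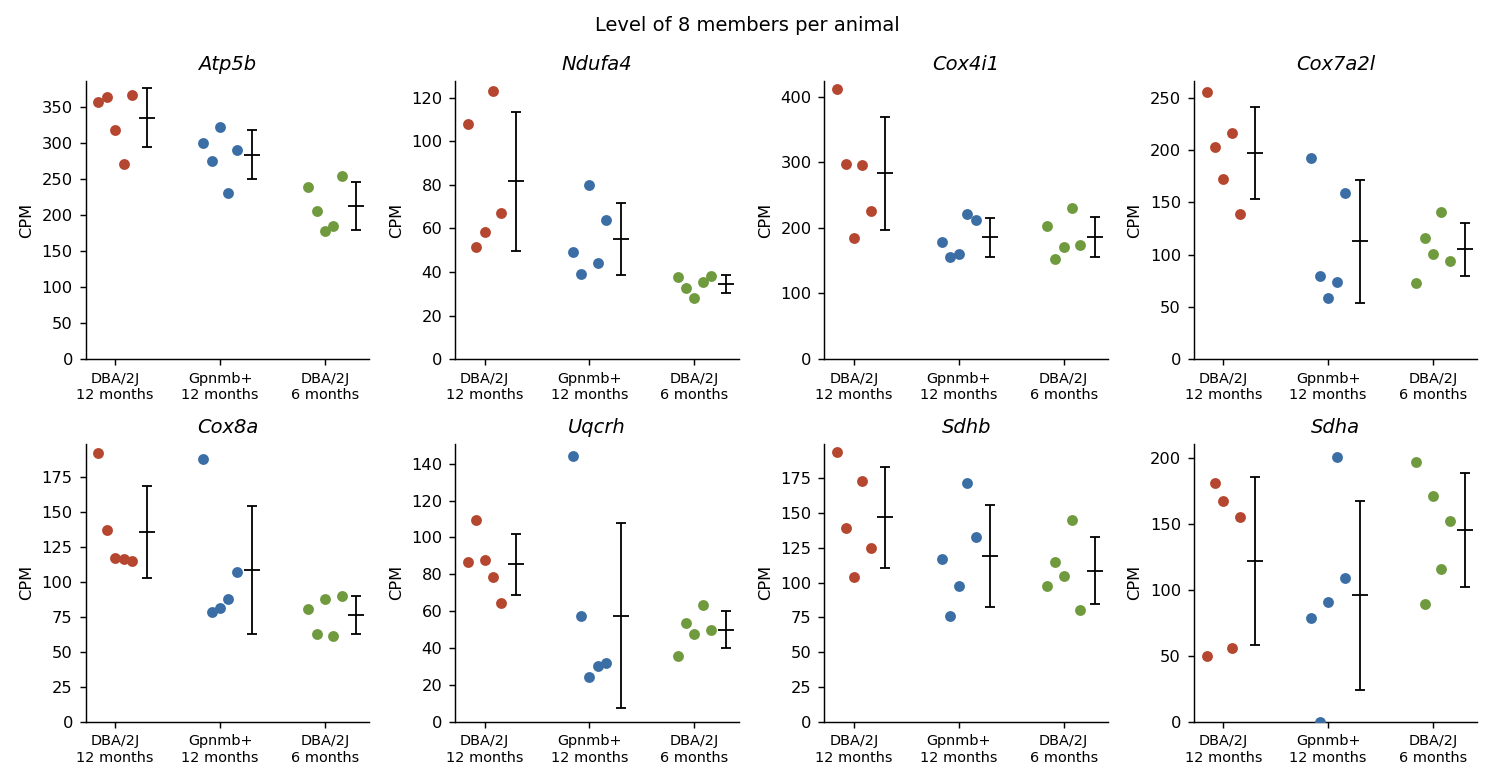
CPM of 8 members per animal, where points are animals 1 to 5 and the bars are mean ± SD (n = 5 per group). Atp5b, Ndufa4, Cox8a and Uqcrh do not overlap between 12-month and 6-month DBA/2J, while Sdhb and Sdha do.

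Between 6-month DBA/2J and Gpnmb+ mice both age and genotype differ, and this comparison shares its animals with the other 2. The summed means had a ratio of 0.88 and the ranges overlapped. Complex III lay below the Gpnmb+ range in all 5 of the 6-month animals, at 404 to 444 CPM against 468 to 662 CPM. Here 23 of 81 members had a positive fold change, where 51.3% of all genes did, and the median was -0.22. This direction rests on 1 animal: without Gpnmb+ animal 1, 42 of 81 were positive and the median was 0.03. Without the 5 retinas under 10000 genes, which leaves Gpnmb+ animals 3, 4 and 5, 38 of 82 were positive and the median was -0.04. Without 6-month animal 3 the median was -0.14. None passed the adjusted threshold (0% of all genes), and at an unadjusted p under 0.05 there was 1 higher (Atp5s) and 2 lower, Atp5c1 at -0.67 ± 0.28 and Atp5b at -0.42 ± 0.19, against 2.2% and 1.57% of all genes. Atp5s was listed at 0 in 13 of 24 retinas and its estimate of 4.11 ± 1.90 rests on few counts.

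Other genes of the pathway were counted from fixed lists, and none of their genes had an adjusted p under 0.05 by edgeR. The mitochondrially encoded subunits were divided against Gpnmb+, with 5 of 12 positive and a median of -0.05, but against 6 months all 12 were positive, 11 at an unadjusted p under 0.05, with a median of 1.17. Their summed level was 7638 to 10840 CPM at 12 months and 3666 to 6438 at 6 months, without overlap, while Gpnmb+ animals had 5302 to 14346. As an example, mt-Atp6, a proton channel subunit of ATP synthase, averaged 1872 ± 562, 1516 ± 422 and 850 ± 248 CPM (SD, n = 5 each) in 12-month DBA/2J, Gpnmb+ and 6-month DBA/2J, and the log2 difference from 6 months was 1.14 ± 0.26 (adjusted p = 0.383 by edgeR). Factors that assemble the complexes gave 33 of 43 positive in each comparison, with medians of 0.33 and 0.43. One of them, Ndufaf4, an assembly factor of complex I, averaged 29.3 ± 10.9 CPM at 12 months and 3.78 ± 3.18 at 6 months (2.95 ± 0.95 in log2, adjusted p = 0.757 by edgeR). Electron carriers and inhibitors had medians of 0.22 and 0.43 over 9 genes, with Cycs, cytochrome c, at 1.41 ± 0.78 against 6 months.

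Of the enzymes of the tricarboxylic acid cycle, 6 of 13 were positive against Gpnmb+ and 5 of 13 against 6 months, with medians of -0.05 and -0.13. Glycolysis enzymes had 9 and 13 of 20 positive and medians of -0.17 and 0.25. Regulators of mitochondrial genes had 10 and 5 of 15 positive and medians of 0.22 and -0.24. Among these, Gabpb1, a subunit of the GABP factor, averaged 9.75 ± 11.3 CPM at 12 months and 38.2 ± 9.05 at 6 months (-1.97 ± 0.98), and Nrf1 32.5 ± 24.3 and 59.9 ± 24.6 (-0.88 ± 0.66), with an adjusted p of 1 by edgeR for both.

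Transcript length and other short, well expressed genes moved with these differences. The members have a median effective length of 436 bases, against 1820 over all genes tested. Other genes between the members' quartiles of abundance had medians of -0.01 against Gpnmb+ and -0.03 against 6 months. When the members' quartiles of length were applied as well, 285 other genes remained, with medians of 0.35 and 0.45, and 211 and 238 of them were positive. The 90 cytosolic ribosomal protein genes tested, which are also short, had medians of 0.39 and 0.63, with 82 and 84 positive. The medians of the members, 0.43 and 0.64, lie close to those of the ribosomal protein genes. They lie above those of the 285 genes, more so against 6 months. The part of length in the result was not tested. Rod markers had 17 of 19 positive and a median of 1.18 against 6 months. Against Gpnmb+, where the members were mostly positive, they had 2 of 19 positive and a median of -0.71. Their sum was 12638 CPM in Gpnmb+ animal 2, 651 to 1957 in the other Gpnmb+ animals and 720.3 to 3434 in 12-month DBA/2J. The higher mean sum of Gpnmb+, 3380 CPM against 2187, thus rests on that 1 animal.

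Within 12-month DBA/2J the grades divide as 3 mild retinas of animals 4 and 5, 4 moderate retinas of animals 1, 2 and 5, and 3 severe retinas of animals 1 and 3. Summed subunit levels of moderate eyes all lay above those of Gpnmb+ animals, and the levels in mild eyes were divided. Summed by animal and grade, the moderate eyes of animals 1, 2 and 5 had 10159, 5778 and 6050 CPM, all above the Gpnmb+ animals at 3078 to 5507. The severe eyes of animals 1 and 3 had 4351 and 4450 CPM, within the Gpnmb+ range. The mild eyes of animals 4 and 5 had 6552 and 3108 CPM, the first above the moderate eyes of animals 2 and 5 and the second near the lowest Gpnmb+ animal.

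Against Gpnmb+, moderate eyes had 77 of 83 members positive, where 47.6% of all 15965 genes tested were, and a median of 0.91. Of 286 other genes within the members' quartiles of abundance and length, 231 were positive, with a median of 0.62. Cytosolic ribosomal protein genes had 84 of 91 positive, 47 higher at an unadjusted p under 0.05, and a median of 0.90. At an unadjusted p under 0.05, 12 members were higher and 0 lower, against 4.76% and 3.71% of all genes. These were Cox4i1, Cox5a, Cox6b1, Cox7a1, Cox7a2l and Cox8a of complex IV, Ndufa4 and Ndufc2 of complex I, Atp5b and Atp5g1 of ATP synthase, Sdhb of complex II and Uqcrq of complex III. Cox4i1 had the smallest p, with a log2 difference of 1.24 ± 0.35 (SE, adjusted p = 0.579 by edgeR, and 0.0391 by DESeq2). Cox7a1 was listed at 0 in 20 of 24 retinas, all Gpnmb+ retinas among them. It failed the filter in the fit of the 3 groups and passed it here through DBA/2J eyes alone. Its estimate is therefore not given, and its place among the 12 is no support. By complex the medians were 1.22 for complex IV, 1.14 for complex III, 0.85 for complex I, 0.79 for ATP synthase and 0.72 for complex II. No gene had an adjusted p under 0.05 (0%) by edgeR.

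Mild eyes had 55 of 83 members positive against Gpnmb+ (44.2% of all genes) and a median of 0.26. At an unadjusted p under 0.05, 1 member was higher, Cox7a1, and 0 were lower (2.67% and 2.75% of all genes). Cox7a1 had no count in any Gpnmb+ retina and passed the filter through DBA/2J eyes alone. Its direction was thus set by the filter and is no support. The median was -0.67 without animal 4, with 6 members lower at that p, and 0.65 without animal 5, with 5 higher, so the mild value rests on which of the 2 animals is kept. It was 0.12 without Gpnmb+ animal 2 and 0.41 without Gpnmb+ animal 1. A fit of single retinas with a random effect for the animal gave 0.84, with 67 of 83 positive. Severe eyes had 45 of 83 positive (45.9% of all genes), a median of 0.10 and no member past that p in either direction (3.07% and 1.2% of all genes). Their median was -0.03 without animal 3, 0.21 without Gpnmb+ animal 1, and 0.05 or less without animal 1 or any 1 of Gpnmb+ animals 2 to 5. In the fit of single retinas it was 0.72, with 69 of 83 positive, so the value near 0 depends on the fit. A trend over the grades, scored 0, 1 and 2, had 27 of 82 members positive (50.4% of all genes), a median of -0.15 and no member at an unadjusted p under 0.05 (1.13% and 0.717% of all genes). The trend was not stable over animals, with 9 of 83 positive, 3 lower at that p and a median of -0.51 without animal 5, 46 of 84 positive and a median of 0.07 without animal 3, -0.01 without animal 4 and -0.08 without animal 1. Moderate eyes were also set against the mean of mild and severe eyes, a contrast added after these levels were seen. Here 73 of 83 members were positive (53.5% of all genes), with a median of 0.76. Of 286 other genes within the members' quartiles of abundance and length, 211 were positive, with a median of 0.46. At that p, 5 members were higher and 0 lower (5.29% and 2.36% of all genes). Those 5 were Cox8a at 1.32 ± 0.48, Atp5b at 0.78 ± 0.28, Cox4i1 at 0.91 ± 0.37, Uqcrq at 1.86 ± 0.87 and Ndufa8 at 1.82 ± 0.86. In each of these 4 tests 0% of genes had an adjusted p under 0.05 by edgeR. Without animal 1 the moderate eyes' median was 0.63 against Gpnmb+ and 0.38 against mild and severe eyes, and the 12 and 5 members higher at that p became 2 and 0. Against mild and severe eyes the count was 4 without Gpnmb+ animal 3 and moved by more than 1.5 times without any other single animal. It was 2 without animal 5, 8 without animal 2 or Gpnmb+ animal 1, 12 without Gpnmb+ animal 2, 16 without animal 4 (with a median of 1.29), and 3 without each of the rest. Without the retinas under 10000 genes, which leaves Gpnmb+ animals 3, 4 and 5, the counts were 23 and 18.

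Animals 1 and 5 have eyes of different grade, which holds the animal constant. In animal 1 the summed CPM per retina was 11929 in the moderate eye and 5443 in the severe eye, and 74 of the 83 members with counts were higher in the moderate eye, where 43.9% of all genes tested were. In animal 5 it was 8729 in the moderate eye and 4160 in the mild eye, and 73 of 85 members were higher in the moderate eye, against 57.4% of all genes tested. All 9 members of complex III were higher in the moderate eye in both animals, and 2 and 3 of the 4 members of complex II. Atp5b had 582 and 371 CPM in the moderate and severe eye of animal 1, and 739 and 250.5 CPM in the moderate and mild eye of animal 5. Cox4i1 had 865 and 323 CPM, and 384 and 239.7 CPM, in the same order. The eyes differed 2.19-fold and 2.10-fold in the summed level, and in the 7 animals whose eyes had the same grade or none the higher eye was 1.04 to 1.38 times the lower. Other transcripts were higher in the same moderate eyes too. Cytosolic ribosomal protein genes differed 2.45-fold and 2.18-fold, and mitochondrially encoded subunits 2.30-fold and 1.44-fold. In the 7 animals these ran from 1.03 to 1.80 and from 1.01 to 3.37. With 2 animals the difference between grades has no test.

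The levels of rod and microglia markers and of other lists also differed between these eyes. Monocyte markers were compared by grade and not eye by eye. Values per retina are CPM without TMM scaling, so they are not on the scale of the sums by animal and grade. The 19 rod markers summed to 9588 CPM in the moderate and 1381 CPM in the severe eye of animal 1, and to 6408 CPM in the moderate and 1047 CPM in the mild eye of animal 5. In the contrast of moderate with mild and severe eyes, 19 of 19 rod markers were positive, 10 at an unadjusted p under 0.05, with a median of 2.81, and ribosomal protein genes had a median of 0.81. Of the 10 monocyte and border macrophage markers that passed the filter, 9 were positive and 4 passed that p, with a median of 4.20 (2.34 in moderate eyes against Gpnmb+). Only 6 of the 11 listed markers passed the filter in the fit of the 3 groups. The size of these fold changes, up to 12.03, thus rests in part on low counts, and their number is no support. At that p, 5.29% of all genes were higher and 2.36% lower in this contrast. Of the 15 microglia markers, 12 were negative and 7 were lower at that p, with a median of -0.57. Microglia markers summed to 31130 CPM in the moderate and 57595 CPM in the severe eye of animal 1, to 36088 CPM in the moderate and 56166 CPM in the mild eye of animal 5, and to 29204 CPM in the left mild eye of animal 4. In other eyes the rod level and the subunit level went apart. The moderate eyes of animal 2 had 4975 and 593 CPM of rod markers with 7762 and 7094 CPM of subunits, and the right eye of Gpnmb+ animal 2 had 36289 CPM of rod markers with 5908 CPM of subunits. In the left mild eye of animal 4, with the lowest total in the group (1706745 counts), subunits reached 10222 CPM with 1261 CPM of rod markers. The part of RNA from rods, of monocyte markers and of the lower microglia markers in the difference between grades was not tested.

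**Figure D5:**
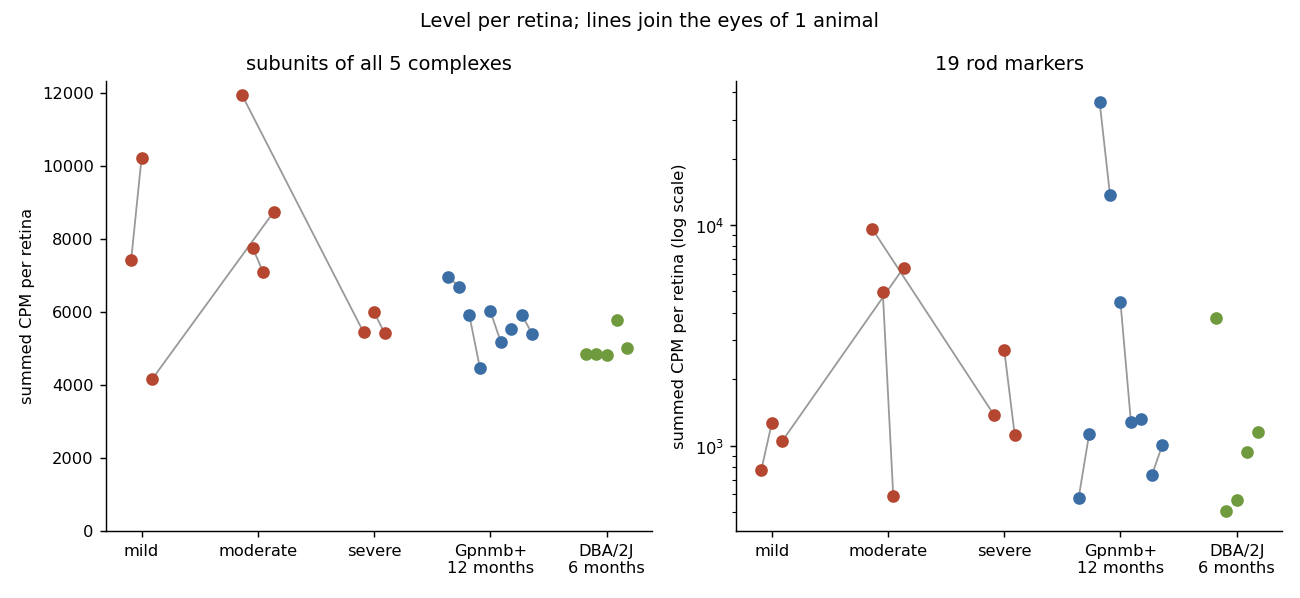
Summed CPM per retina, of counts outside the ribosomal RNA gene, for the subunits of all 5 complexes (left, linear axis) and for 19 rod markers (right, log axis), by grade of the 12-month DBA/2J eyes and by group. Lines join the eyes of 1 animal, and both eyes of different grade show a higher subunit level in the moderate eye (11929 against 5443 and 8729 against 4160).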

How the data were processed

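RNA of sorted microglia was sequenced with 1 library per retina. The authors deposited 1 table per retina with expected counts, which are estimated counts that need not be whole, as well as TPM (per the file headers). DESeq2 1.30.1, R 4.0.3, Salmon 1.4.0 and the build mm10 are listed in the submitters' processing notes with no role, and the annotation and filters used upstream are not stated there. A series table with 24 columns of FPKM values was not used. Of 47729 gene IDs, 47310 matched a symbol in GENCODE vM21 (GRCm38), and 6 names ending in -ps were left out. Promoter windows came from RefSeq.

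Expected counts were rounded and summed over the eyes of an animal (15 sums), or of an animal and grade (17 sums, 7 for the trend, where animals 1 and 5 enter with a sum per grade, taken as independent). Tests used the quasi-likelihood F test of edgeR 4.0.16 under R 4.3.3 (TMM, filterByExpr with a minimum count of 10 and total of 15), two-sided, with Benjamini-Hochberg adjustment over all genes. CPM are TMM-scaled. CPM per retina use counts outside CT010467.1. In the grade fit 83 members passed the filter and in the trend 82. Fits were tested on simulated data. Alternatives used DESeq2 1.42.0, limma 3.58.1 (voomLmFit), other scaling and filters, and fewer retinas or animals.

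Animal numbers are shared between groups only as numbers. No 2 retinas of a group agreed within sampling noise. Named were fixed members (1 of which is not reported here), the 3 members per complex with the smallest p in each main comparison, the 5 with the highest TPM, those without counts, and up to 2 genes per list; any other name was picked with its values in view. The members and lists were chosen with earlier results of these data known. The GEO labels do not tell whether mice were littermates, so p-values of the group comparisons measure the spread between these animals. In the tests by grade, animals 1 and 5 enter with a sum per grade. Those p-values therefore mix the spread between animals with that between eyes of 1 animal and leave out the pairing.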

Additional observations from a re-analysis of the deposited data

Results flagged for a closer look

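Within groups of 5 animals, 10 of 120 tested groups of values (8.3%) had 1 animal farther from the others than Dixon's 95% limit, where chance marks about 1 in 20. Gpnmb+ animal 1 stood high in 3 of them. Its summed level of complex I was 1989 CPM (others 1011 to 1275), its Cox8a 188 CPM (78.1 to 107) and its Uqcrh 144 CPM (24.2 to 57.5). The 6-month DBA/2J animal 4 stood high in the summed level of complex IV, at 762 CPM (594 to 612), and of all 5 complexes, at 4254 CPM (3508 to 3636). Among 12-month DBA/2J animals, animal 1 had 192 CPM of Cox8a (115 to 137), animal 2 had 338 CPM of Uqcrc1 (149 to 199) and animal 4 had 112 CPM of Ndufs8 (69.2 to 81.4). At low counts, Gpnmb+ animal 5 had 2.27 CPM of Cox6a2 (0 to 0.181) and Gpnmb+ animal 3 had 2.96 CPM of Atp5s (0 to 0.615).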

How the results depend on the processing

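The edgeR fit called 0 genes in all 8 comparisons. DESeq2 called 105 genes in 12-month DBA/2J against Gpnmb+, 60 against 6 months, 53 in 6-month DBA/2J against Gpnmb+, 22 in the trend, 511, 249 and 224 in mild, moderate and severe eyes against Gpnmb+, and 316 in moderate against mild and severe eyes. Its member calls were Atp5b at 12 against 6 months (adjusted p = 0.00525) and in moderate against mild and severe eyes (0.0244), Cox4i1 in moderate eyes (0.0391) and Ndufb2 in mild eyes (-4.26 in log2, 0.0438). Retinas with a random animal effect gave 8, 5, 40, 3, 3, 13, 32 and 4 calls in that order, none of them a member. That fit enters each retina by itself and does not sum the eyes of an animal. Its member median was 1.08 against Gpnmb+ (0.43 in the sums) and 0.39 against 6 months. For 6-month DBA/2J against Gpnmb+ it was 0.65 (-0.22 in the sums). By grade against Gpnmb+ it was 0.84 in mild, 1.34 in moderate and 0.72 in severe eyes (0.26, 0.91 and 0.10 in the sums). With no filter on low counts there were 2 calls at 12 against 6 months, 6 in the trend, 31, 33 and 10 in mild, moderate and severe eyes and 33 in moderate against mild and severe eyes. The retina with the larger total alone gave 2 in mild eyes. Leaving out 1 animal gave 0 to 1 calls against Gpnmb+, 0 to 2 in mild eyes, 0 to 4 in moderate eyes and 0 to 1 in moderate against mild and severe eyes. It gave a mild median of -0.67 to 0.65.

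With the animal number as a replicate block there were 4 calls in moderate and 1 in severe eyes and 0 in the other 6 comparisons. Over 15 pairs of same-numbered animals the correlation of deviations was -0.046 to 0.088, so the numbers do not pair the groups. The member median under the replicate block was 0.57 against Gpnmb+ and 0.59 against 6 months.

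The median of the members kept its sign under all alternatives at 12 months against Gpnmb+ (0.32 to 1.08) and against 6 months (0.39 to 0.74). Single members near 0 changed sign. Against Gpnmb+, Ndufs1 was -0.00 under DESeq2 and RLE scaling and -0.22 under the replicate block, Cyc1 was -0.02 under DESeq2 and RLE, and Uqcrc2 -0.50 with the random effect. Without retinas under 10000 genes, Ndufv1 was -0.10, Sdha -0.27, Cox7a2 0.09 and Atp5c1 0.55. Atp5c1 was 0.19 without retinas under 20% of the median total, 0.30 with the larger retina, 0.14 with the random effect (Cox7a2 0.15) and 0.02 with the replicate block. It was 0.03 with no filter and without the 2 most abundant ribosomal RNA-like genes (an alternative added after seeing the data) and 0.02 with only the groups compared. Against 6 months, the larger retina gave Ndufs1 0.07 and Sdha 0.01, the replicate block Atp5s 0.07 and the random effect Uqcrc2 -0.79. Leaving out 1 animal gave, against Gpnmb+, Atp5c1 -0.15 to 0.15, Cox7a2 -0.24 to 0.06, Cyc1 -0.08 to 0.26, Ndufs1 -0.18 to 0.41, Ndufv1 -0.03 to 0.50, Sdhc -0.20 to 0.94 and Uqcrc2 -0.12 to 0.32, and against 6 months Ndufs1 -0.38 to 0.21, Sdhd -0.46 to 0.08 and Uqcrfs1 -0.38 to 0.13. The causes were not tested. Of 1766 values of named members under alternatives, 1710 kept their direction and side of the threshold. Retinas with few genes detected limit what the Gpnmb+ group can show.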
